A study of Mus musculus with 12 samples.

Results

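The Wnt signalling genes described here are 55 genes of the 55414 in the count table, found by symbol. They are every Wnt ligand, frizzled receptor (Fzd), secreted frizzled-related protein (Sfrp), dickkopf (Dkk) and R-spondin (Rspo), together with Lrp5, Lrp6, Lgr4, Ctnnb1, Axin1, Axin2, Lef1, Tcf7, Tcf7l1, Tcf7l2, Nkd1, Nkd2, Rnf43 and Znrf3. Their RNA was counted in 3T3-L1 cells, mouse preadipocytes that become fat cells under a hormone cocktail and are labelled mesenchymal stem cells. The study asked how FHL2, a LIM-domain protein, and the tonicity factor NFAT5 bear on the start of that process. Polyadenylated RNA was sequenced in 12 stranded libraries, 3 in each of 4 groups.

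The groups combined 2 constructs with 2 days. Cells carried either FHL2 fused to green fluorescent protein (FHL2-GFP, genotype label FHL2 overexpression) or a control construct (CTRL-GFP), and all were grown in 10% fetal bovine serum. Day 0 was the post-confluent culture, and day 2 followed treatment with 170 nM insulin, 1 µM dexamethasone and 0.5 mM isobutylmethylxanthine in the same serum. Libraries of the first kind are called FHL2 and of the second kind control. The labels name neither the promoter nor the way the constructs were introduced, and they do not say whether the 3 libraries of a group came from separate cultures. All p-values therefore measure only the spread between these libraries, which may be technical. In bulk RNA, fewer cells of a kind and less RNA per cell cannot be told apart.

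Counts of Fhl2 did not separate the lines. At day 0 they stood at 58.8, 60.9 and 63.6 CPM (counts scaled to library size) in the libraries labelled control and at 67.3, 58.7 and 61.9 CPM in those labelled FHL2. At day 2 they were 13.8, 14.2 and 21.0 CPM against 18.7, 9.91 and 22.6 CPM. Whether the transcript of the construct would be counted under Fhl2 is not stated in the labels, so every difference between the lines below is a difference between libraries so labelled. Depth ran from 10047708 to 21872139 counts per library. The day 0 libraries held a count for 17977 to 18811 genes and the day 2 libraries for 12689 to 16131. Scaled down to the smallest library total, the expected numbers were 17316 to 18029 at day 0 and 12689 to 15823 at day 2. The day 2 libraries thus held fewer genes at equal depth too, and the reason was not tested. The sparsest at day 2, by genes with a count, were control replicate 3 and FHL2 replicates 1 and 2. The spread between libraries, given as the biological coefficient of variation, was 0.123 at day 0 and 0.463 at day 2. The 7 preadipocyte and fibroblast markers summed to between 20756 and 23839 CPM in every library. The 5 adipocyte markers summed to 9.21 to 13.6 CPM at day 0, with 3 of them at 0. At day 2 they summed to 112 to 145 CPM in control and to 72.5 to 102 CPM in FHL2, without overlap. All 5 had the lower mean in FHL2 at day 2, and Lipe, at means of 79.4 and 71.2 CPM, made up most of the sums. The 5 macrophage and blood markers summed to 7.24 to 13.6 CPM at day 0 and to 0.277 to 4.43 CPM at day 2, and the endothelial, epithelial, muscle and bone or cartilage lists stayed at or under 5.13 CPM in every library. The part of these markers in the differences below was not tested.

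Wnt ligands are secreted lipid-modified proteins that bind a frizzled receptor and, in the canonical branch, the co-receptor Lrp5 or Lrp6. Binding stops a complex built on Axin and Apc from marking beta-catenin, the product of Ctnnb1, for destruction, so that beta-catenin enters the nucleus and works with the DNA-binding factors Lef1, Tcf7, Tcf7l1 and Tcf7l2. In preadipocytes this branch is known for holding back the switch to fat cells, and Wnt10b is the ligand best known for it. FHL2 is known as a protein that can bind beta-catenin.

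Of the 55 genes, 14 had no count in any library, 16 had counts too low to test and 25 were tested. The ligands were the thinnest class, with 5 of 19 tested: Wnt4, Wnt5a, Wnt6, Wnt9a and Wnt10b. Of the receptors 10 of 13 were tested, of the R-spondins 2 of 4 and of the secreted antagonists 2 of 8. Of the other negative regulators, labelled feedback in the figures, 2 of 6 were tested. Of the TCF and LEF factors it was 3 of 4, along with Ctnnb1. Levels between genes are compared per kilobase of the longest annotated transcript. On that scale beta-catenin's own gene led in control at day 0 with a mean of 214 CPM per kb, ahead of 63.1 for Tcf7l1, 33.6 for Fzd2, 31.96 for Fzd1, 23.7 for Lrp5 and 21.8 for Lrp6. The ligand with the highest level, Wnt5a, stood at 6.42 CPM per kb, and Wnt10b, Wnt4, Wnt9a and Wnt6 all stood at or under 0.503. At the transcript level the libraries thus held far more receptor, co-receptor and nuclear transducer than ligand.

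The 2 days were compared first, since they show what induction did to the pathway in each line. In control, 12 of the 25 tested members passed the test (edgeR's quasi-likelihood test with Benjamini-Hochberg adjustment over all genes), 6 higher at day 2 and 6 lower, where 57.1% of all tested genes passed (26.3% higher and 30.8% lower). The FHL2 libraries gave 10 of 25, 5 higher and 5 lower, where 56.0% of all tested genes passed (25.8% higher and 30.2% lower). The members' share was under that of genes at large in both lines, by a few genes in a set of 25. That order turned after the GC correction given next, so it is not read as a result about the members. The 8 called the same way in both lines were 8 of the 12 in control and 8 of the 10 in FHL2: Wnt4, Lrp5, Axin1, Lef1 and Tcf7l1 were higher at day 2, and Wnt10b, Lrp6 and Sfrp2 lower. Called in control but not in FHL2 were Fzd4, Fzd3, Rspo3 and Wnt5a, and in FHL2 but not in control Lgr4 and Znrf3. In the fit of all libraries the interaction of line and day passed for none of these 6. The members' median log2 fold change was -0.05 in control and -0.25 in FHL2, beside -0.14 and -0.11 over all tested genes.

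Changes between the days followed the base composition of transcripts, so each value was also fitted with an offset per library that follows GC content. That correction moved the median of all tested genes in control from -0.14 to -0.26 and the split of calls from 3799 higher and 4447 lower to 2047 and 3839. In FHL2 it moved the median from -0.11 to -0.23 and the split from 3730 higher and 4357 lower to 2153 and 3777. Among the members it gave 14 calls in control, 5 higher and 9 lower, where 40.8% of all tested genes passed, and 16 in FHL2, 5 higher and 11 lower, where 41.1% passed. The members' share was then above that of all tested genes in both lines, the reverse of the order before correction. Neither order is read as a trait of the members. Their corrected median log2 fold change was -0.37 in control and -0.61 in FHL2. The correction turned the sign of Axin1, Ctnnb1, Fzd2, Fzd3 and Tcf7l2 in both lines, of Fzd1, Fzd7 and Dkk3 in control and of Wnt6 in FHL2. Whether the GC trend is technical was not tested.

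**Figure D1:**
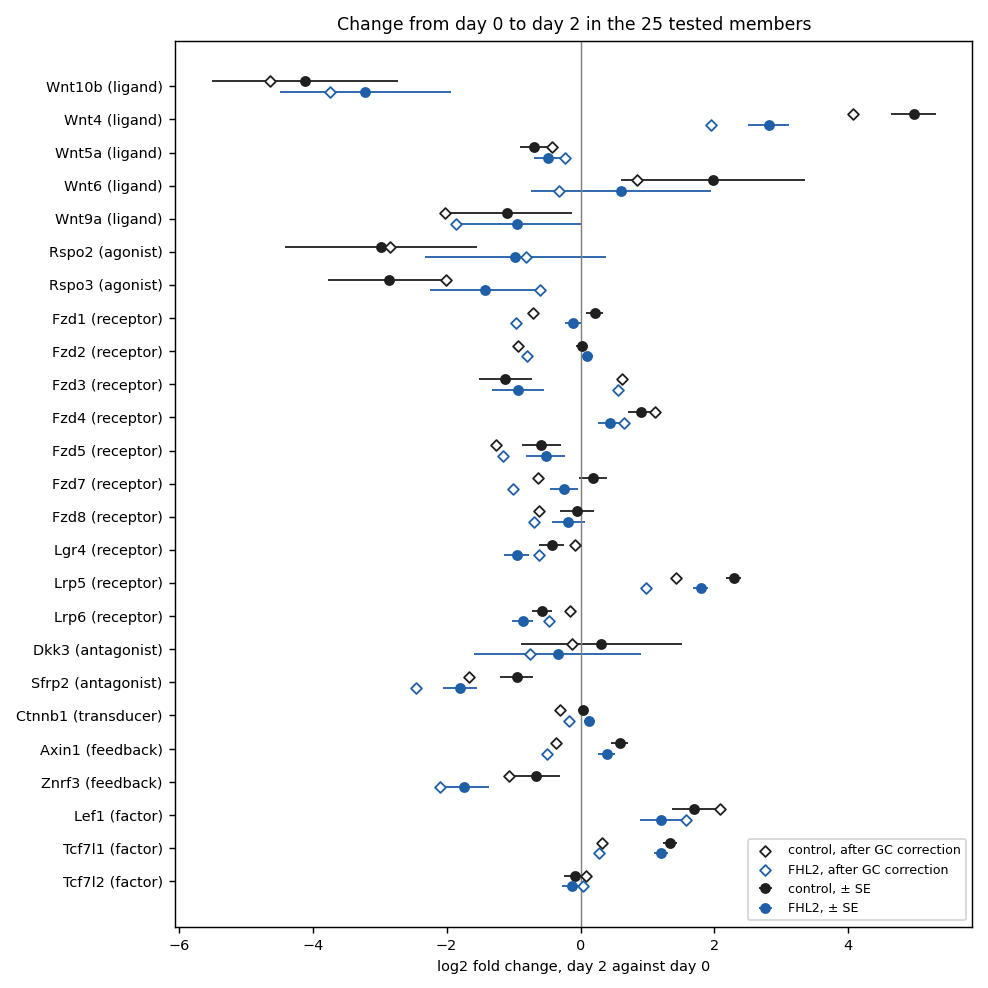
Log2 fold change of day 2 against day 0 (x axis) for the 25 tested members (y axis, with the role of each), in control (black) and FHL2 (blue). Filled points with bars are the fitted value ± SE, and open diamonds the value after GC correction. Wnt4 and Lrp5 lie far to the right in both lines and on both scales, whereas the diamonds of Fzd1, Fzd2 and Axin1 lie left of 0 and their filled points in control right of it.

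The sequences before the transcription starts of 5 members that moved are shown so that these members can be compared at the DNA level. They are the 250 bases upstream of a RefSeq start in GRCm38.p6, printed 5′ to 3′ on the gene's strand, with every match to a searched motif, on either strand, in capitals. Wnt4 and Fzd4 were higher at day 2, Wnt10b and Sfrp2 lower, and Lef1 is shown at 1 of its listed starts because only there did the window hold the core of a TCF and LEF site.
Wnt4, chr4:137277385-137277634 (+): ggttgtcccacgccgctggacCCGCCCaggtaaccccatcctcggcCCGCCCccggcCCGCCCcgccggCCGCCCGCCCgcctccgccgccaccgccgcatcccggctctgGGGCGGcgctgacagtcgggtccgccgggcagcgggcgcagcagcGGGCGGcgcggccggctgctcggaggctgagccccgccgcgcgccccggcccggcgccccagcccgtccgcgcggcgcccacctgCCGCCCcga
Fzd4, chr7:89404116-89404365 (+): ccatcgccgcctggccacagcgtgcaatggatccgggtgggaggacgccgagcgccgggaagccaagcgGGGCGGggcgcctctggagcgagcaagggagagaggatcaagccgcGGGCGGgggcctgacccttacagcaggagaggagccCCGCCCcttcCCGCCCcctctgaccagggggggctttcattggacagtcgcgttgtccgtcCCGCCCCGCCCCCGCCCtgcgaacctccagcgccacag
Wnt10b, chr15:98778151-98778400 (-): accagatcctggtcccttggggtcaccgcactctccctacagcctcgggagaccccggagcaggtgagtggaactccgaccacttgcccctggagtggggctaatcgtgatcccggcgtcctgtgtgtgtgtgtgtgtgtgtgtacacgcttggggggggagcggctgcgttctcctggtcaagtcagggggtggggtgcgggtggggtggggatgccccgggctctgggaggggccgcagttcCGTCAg
Sfrp2, chr3:83766071-83766320 (+): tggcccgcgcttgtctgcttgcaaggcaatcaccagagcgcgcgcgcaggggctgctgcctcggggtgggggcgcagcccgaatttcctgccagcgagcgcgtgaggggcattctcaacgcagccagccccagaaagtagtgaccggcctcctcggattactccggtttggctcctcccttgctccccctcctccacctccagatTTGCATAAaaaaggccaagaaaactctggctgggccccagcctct
Lef1, chr3:131156044-131156293 (+): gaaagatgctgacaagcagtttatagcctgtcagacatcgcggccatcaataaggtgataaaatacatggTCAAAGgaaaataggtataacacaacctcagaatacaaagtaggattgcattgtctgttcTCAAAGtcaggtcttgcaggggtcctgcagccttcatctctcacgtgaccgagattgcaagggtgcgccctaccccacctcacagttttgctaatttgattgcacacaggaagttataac

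The capitals in the Wnt4 window are 8 GC boxes (GGGCGG), and those in the Fzd4 window 7, some of them overlapping. In the Wnt10b window they are 1 cAMP response core (TGACG), in the Sfrp2 window 1 C/EBP-type site (TTGCNNAA) and in the Lef1 window 2 TCF and LEF cores (CTTTGA). Windows were on hand for 37 of the 55 members, 47 windows in all, and were compared with all 32851 RefSeq windows of the same length. A GC box was in 31 of the 47 windows, from 26 members, beside 32.7% of all windows. The TCF and LEF core was in 5 of the 47 windows, 1 each of Dkk1, Fzd1, Lef1, Wnt11 and Wnt5b, beside 13.8% of all windows. The cAMP core was in 7 of the 47 windows, from 6 members, beside 17.8% of all windows. The C/EBP-type site was in 4 of the 47, 1 each of Fzd1, Lgr4, Sfrp2 and Wnt3, beside 9.56%. Neither the full cAMP element TGACGTCA, in 1.55% of all windows, nor the full palindrome of the glucocorticoid response element, in 0.0304%, was in any member's window. A match is a run of letters and no binding site, and a window without one says nothing of the factor.

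Among the ligands, Wnt4 rose and Wnt10b fell in both lines. Wnt4 (ENSMUSG00000036856), known for its part in kidney and gonad development, was 1.09, 1.08 and 1.04 CPM in the control libraries at day 0 and 26.8, 47.7 and 27.3 CPM at day 2. FHL2 libraries held 2.32, 2.30 and 2.37 CPM at day 0 and 17.7, 11.7 and 19.7 CPM at day 2. Every day 2 library stood above every day 0 library, and within each group the day 0 libraries lay close together. The day 0 values rest on 24, 20 and 17 counts in control and 55, 47 and 50 in FHL2. Their small spread is therefore no measure of how precisely the day 0 level is known. The rise came to a log2 fold change of 4.98 (SE 0.34, adjusted p = 3.21e-08) in control, 31.5-fold, and of 2.81 (SE 0.30, adjusted p = 2.39e-06) in FHL2, 7.01-fold. After GC correction the values were 4.07 and 1.95, both still called.

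Wnt10b (ENSMUSG00000022996) was near the lower limit of what these libraries resolve. Its control libraries gave 0.814, 1.08 and 1.17 CPM at day 0 and 0.141, 0 and 0 CPM at day 2. Its FHL2 libraries gave 1.14, 0.781 and 0.617 CPM at day 0 and 0, 0 and 0.242 CPM at day 2. All 6 day 0 libraries held a count, and 4 of the 6 day 2 libraries held none. In control the 57 counts of day 0 stood against 2 at day 2, a depth-scaled ratio of 18.5 (95% exact interval 4.90 to 157, counting error only). The fall passed in control (log2 fold change -4.12, SE 1.39, adjusted p = 0.0206) and in FHL2 (-3.22, SE 1.28, adjusted p = 0.0449). Neither call was firm. In control it was lost without replicate 2 or replicate 3 of either day (adjusted p between 0.0532 and 0.0718), and without day 2 replicate 1 the value was -7.14. For FHL2 the values were lost on leaving out any single day 0 library of either line or FHL2 day 2 replicate 1 or 2 (adjusted p between 0.0771 and 0.126), with the replicate block (adjusted p = 0.0724) and without the 3 sparsest day 2 libraries (-1.76, adjusted p = 0.214). Without FHL2 day 2 replicate 3 the value was -6.86.

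Wnt5a (ENSMUSG00000021994), the main ligand of the branch that does not use beta-catenin, was the most abundant ligand at day 0 in both lines. Control libraries gave 41.2, 46.1 and 47.6 CPM at day 0 and 30.1, 30.3 and 22.9 CPM at day 2. FHL2 libraries gave 41.5, 42.7 and 38.02 CPM at day 0 and 37.9, 18.8 and 30.2 CPM at day 2. In both lines the day 2 libraries lay below those of day 0, in FHL2 by a margin under 1 CPM between the nearest pair. The fall passed in control (log2 fold change -0.69, SE 0.21, adjusted p = 0.0126) but not after GC correction (-0.43, adjusted p = 0.121) or without control day 2 replicate 3 (-0.51, adjusted p = 0.0701). FHL2 gave -0.49 (SE 0.21, adjusted p = 0.0627), which passed without FHL2 day 2 replicate 1 (-0.71, adjusted p = 0.0131) and was -0.23 (adjusted p = 0.407) after GC correction.

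Wnt6 and Wnt9a were measured at group means of 0.288 to 1.18 CPM and 0.757 to 2.66 CPM and passed in neither line. Their log2 fold changes between the days were 1.98 and 0.61 for Wnt6 and -1.10 and -0.95 for Wnt9a, each with an SE of 0.95 or more. After GC correction they were 0.85 and -0.33 for Wnt6 and -2.02 and -1.85 for Wnt9a, none of them called. The other ligands were at the floor. Wnt1, Wnt2, Wnt3, Wnt3a, Wnt7a, Wnt8b, Wnt9b and Wnt16 had no count in any library. Wnt2b had 41 counts over the 12 libraries, Wnt11 40, Wnt5b 20, Wnt8a 4, and Wnt7b and Wnt10a 2 each. A gene without a count in a library of this depth may still be present at up to 3 counts of the total.

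The R-spondins, secreted proteins that raise the number of Wnt receptors at the cell surface by way of Lgr4, were led by Rspo3 (ENSMUSG00000019880). It was 8.32, 7.61 and 5.21 CPM in control at day 0 and 0, 2.79 and 0 CPM at day 2. FHL2 had 15.9, 12.3 and 11.1 CPM at day 0 and 5.90, 4.75 and 3.997 CPM at day 2. The day 2 libraries lay below those of day 0 in both lines, and in control a single day 2 library held all the counts. The fall passed in control (log2 fold change -2.85, SE 0.92, adjusted p = 0.0157), where it was -9.92 without day 2 replicate 2, -5.27 by limma-voom, and not called after GC correction (-2.02, adjusted p = 0.0817) or with the control libraries fitted alone (adjusted p = 0.0825). FHL2 gave -1.42 (SE 0.82, adjusted p = 0.158), which passed with the FHL2 libraries fitted alone (-1.39, adjusted p = 0.00343, where 56.2% of all tested genes passed) or without control day 2 replicate 2 (-1.41, adjusted p = 0.00443) and was -0.61 (adjusted p = 0.576) after GC correction. Rspo2 had group means of 2.82 and 0.339 CPM in control and of 0.972 and 0.496 CPM in FHL2, and its adjusted p between the days was 0.0917 and 0.569. Rspo1 and Rspo4 had no count.

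The co-receptors Lrp5 and Lrp6 moved apart. Lrp5 (ENSMUSG00000024913) was 209, 193 and 229 CPM in control at day 0 and 1028, 1041 and 1011 CPM at day 2. In FHL2 it was 224, 245 and 266 CPM at day 0 and 945, 892 and 711 CPM at day 2. The lowest day 2 library held more than the highest day 0 library by a wide margin in both lines. The rise was 4.88-fold in control (log2 fold change 2.29, SE 0.11, adjusted p = 1.58e-09) and 3.47-fold in FHL2 (1.79, SE 0.11, adjusted p = 1.43e-08). GC correction brought these to 1.42 and 0.98, both called.

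Lrp6 (ENSMUSG00000030201) was 228, 188 and 196 CPM in control at day 0 and 151, 137 and 121 CPM at day 2. The FHL2 libraries gave 156, 173 and 159.96 CPM at day 0 and 109, 93.7 and 66.3 CPM at day 2. The days did not overlap in either line, and at each day every FHL2 library lay below every control library. The fall between the days passed in control (log2 fold change -0.58, SE 0.15, adjusted p = 0.00441) and in FHL2 (-0.87, SE 0.15, adjusted p = 0.000225). After GC correction control no longer passed (-0.16, adjusted p = 0.408) while FHL2 did (-0.47, adjusted p = 0.0211), and after a correction for GC and transcript length neither did (0.17 and -0.05). The longest transcript of Lrp6 has a GC content of 45.997% and that of Lrp5 54.7%.

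Lgr4 (ENSMUSG00000050199), the receptor for R-spondins, was 64.6, 65.1 and 53.3 CPM in control at day 0 and 47.1, 37.3 and 51.6 CPM at day 2. FHL2 libraries held 87.3, 84.5 and 76.4 CPM at day 0 and 38.4, 56.7 and 33.2 CPM at day 2. The FHL2 day 0 libraries were the highest of all 12, and the day 2 libraries of the lines lay in one range. Its fall passed in FHL2 (log2 fold change -0.95, SE 0.19, adjusted p = 0.000536), though not after correction for GC and length (-0.47, adjusted p = 0.0512). Control gave -0.43 (SE 0.19, adjusted p = 0.0606), which passed without control day 0 replicate 3 (-0.53, adjusted p = 0.0461) or FHL2 day 2 replicate 2 or 3. With GC correction alone FHL2 gave -0.62 (adjusted p = 0.0173) and control -0.08 (adjusted p = 0.764).

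Of the 7 tested frizzleds, only Fzd4 and Fzd3 passed between the days, both in control. Fzd4 (ENSMUSG00000049791), known as the receptor for Norrin as well as for Wnts, was 32.6, 34.3 and 27.7 CPM in control at day 0 and 69.5, 61.1 and 45.8 CPM at day 2. For FHL2 the values were 37.5, 37.6 and 42.2 CPM at day 0 and 66.9, 48.9 and 43.96 CPM at day 2. All day 2 libraries lay above those of day 0 within each line. The rise passed in control (log2 fold change 0.90, SE 0.18, adjusted p = 0.000792), and FHL2 gave 0.45 (SE 0.18, adjusted p = 0.051), which passed after GC correction (0.65, adjusted p = 0.0121), with the FHL2 libraries fitted alone (0.48, adjusted p = 0.0418), without control day 2 replicate 1 or 3 (adjusted p = 0.0433 and 0.0208) and without FHL2 day 2 replicate 3 (0.58, adjusted p = 0.0254). Of the 12 settings besides single left-out libraries, FHL2 passed in 7, with adjusted p from 0.00025 to 0.334 over the 12.

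Fzd3 (ENSMUSG00000007989), a receptor known for planar polarity, was 12.7, 15.4 and 10.6 CPM in control at day 0 and 2.60, 6.25 and 9.09 CPM at day 2. FHL2 had 14.5, 14.3 and 16.3 CPM at day 0 and 11.2, 6.23 and 6.18 CPM at day 2. The days did not overlap, but the day 2 libraries of control were widely spread. The fall passed in control (log2 fold change -1.12, SE 0.39, adjusted p = 0.0246) and gave -0.94 (SE 0.39, adjusted p = 0.0524) in FHL2, which passed on leaving out control replicate 1 or 3 or FHL2 replicate 1 of day 2 (adjusted p between 0.0164 and 0.0231). After GC correction the sign turned in both lines (0.62 and 0.55, neither called); at 40.3% its transcript had the lowest GC content of the tested members. The control call was also lost without replicate 1 of either day or replicate 2 of day 0 (adjusted p between 0.0521 and 0.0881) and when only the control libraries were fitted (adjusted p = 0.0658), a fit in which 59.6% of all tested genes passed. In the fit of the FHL2 libraries alone Fzd3 passed (-0.90, adjusted p = 0.0274), so that which line holds the call depended on the fit.

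Fzd1 and Fzd2, the most abundant frizzleds, had group means of 129.5 to 156 CPM and 106 to 125 CPM. Their log2 fold changes between the days were 0.21 and -0.11 for Fzd1 and 0.02 and 0.10 for Fzd2, with SEs of 0.12 and 0.092, and none passed. After GC correction both fell in both lines, Fzd1 with -0.70 and -0.97 and Fzd2 with -0.94 and -0.80, and so did Fzd5 (-1.26 and -1.15) and Fzd7 (-0.63 and -1.002). Fzd5, Fzd7 and Fzd8 had group means of 13.99 to 22.4 CPM and passed in neither line without it. Corrected, Fzd8 was -0.61 (adjusted p = 0.0585) in control and -0.70 (adjusted p = 0.034) in FHL2. Fzd10 had no count, Fzd6 had 2 and Fzd9 21, of which 15 were in control at day 2.

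Of the secreted antagonists, which bind Wnts or their co-receptors, Sfrp2 (ENSMUSG00000027996) was the only one with a group mean above 2 CPM. It was 26.5, 26.2 and 27.1 CPM in control at day 0 and 13.8, 13.2 and 14.2 CPM at day 2. In FHL2 it was 30.7, 32.97 and 37.1 CPM at day 0 and 13.2, 5.53 and 10.1 CPM at day 2. Its day 2 libraries lay clear of day 0 in both lines, and within each day the control libraries lay close together. The fall was 1.94-fold in control (log2 fold change -0.96, SE 0.25, adjusted p = 0.00453) and 3.48-fold in FHL2 (-1.80, SE 0.25, adjusted p = 3.16e-05). GC correction made it larger, -1.67 and -2.45. Dkk3, with group means of 0.361 to 1.03 CPM, did not pass (0.31 and -0.34, or -0.12 and -0.76 after GC correction).

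The other antagonists were not tested. Sfrp5 and Dkk4 had no count, Sfrp1 had 3 and Dkk1 2. Dkk2 had counts of 9, 7 and 0 in the control libraries at day 0 and none in the other 9. Sfrp4 had 20, 6 and 1 counts in FHL2 at day 0, 2, 1 and 0 in control at day 0 and none at day 2. Both thus rested on a few libraries of day 0.

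Ctnnb1 (ENSMUSG00000006932), which encodes beta-catenin, passed in none of the comparisons in the fit of all libraries without GC correction. It was 766, 795 and 764 CPM in control at day 0 and 854, 765 and 761 CPM at day 2. The FHL2 libraries gave 770.5, 791 and 758 CPM at day 0 and 906, 782 and 857 CPM at day 2. The groups overlapped. The log2 fold change between the days was 0.03 (95% interval -0.13 to 0.20, adjusted p = 0.728) in control and 0.13 (-0.03 to 0.30, adjusted p = 0.151) in FHL2. After GC correction control gave -0.30 (adjusted p = 0.0121) and FHL2 -0.17 (adjusted p = 0.141). The corrected medians over all tested genes were -0.26 and -0.23, so these values lay near those of genes at large. With upper-quartile scaling FHL2 gave 0.22 and passed (adjusted p = 0.0338), so its sign and call depended on the scaling and correction.

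The negative regulators other than the secreted antagonists were mixed without the GC correction. Axin1 (ENSMUSG00000024182), the scaffold of the complex that marks beta-catenin for destruction, was 70.5, 71.1 and 76.6 CPM in control at day 0 and 114, 98.3 and 115 CPM at day 2. FHL2 libraries held 79.2, 80.7 and 82.5 CPM at day 0 and 86.6, 126 and 106 CPM at day 2. Day 2 lay above day 0 in both lines, in FHL2 with wide spread. The rise passed in control (log2 fold change 0.58, SE 0.13, adjusted p = 0.00133) and FHL2 (0.39, SE 0.13, adjusted p = 0.0168), and both turned to a called fall after GC correction (-0.37 and -0.50, adjusted p = 0.02 and 0.00316). The FHL2 call was lost without replicate 2 of either day or replicate 1 of day 0 (adjusted p between 0.0525 and 0.0969). The direction for Axin1 thus depended on the GC correction. Its corrected values stand beside corrected medians of -0.26 in control and -0.23 in FHL2 over all tested genes.

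Znrf3 (ENSMUSG00000041961), a ubiquitin ligase that removes frizzleds from the cell surface, was 8.09, 7.88 and 7.91 CPM in control at day 0 and 7.46, 4.26 and 3.25 CPM at day 2. For FHL2 the values were 8.92, 8.60 and 8.35 CPM at day 0 and 2.64, 2.76 and 2.36 CPM at day 2. The FHL2 day 2 libraries were the lowest of all 12 and lay close together, while those of control spread from near the day 0 level downward. The fall passed in FHL2 (log2 fold change -1.73, SE 0.37, adjusted p = 0.00114) and gave -0.67 (SE 0.36, adjusted p = 0.129) in control, which passed after GC correction (-1.07, adjusted p = 0.0327) or without control day 2 replicate 1 (-1.06, adjusted p = 0.0289).

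Axin2 (ENSMUSG00000000142), the beta-catenin target most used as a readout of canonical signalling, was too low to test. Its counts were 3, 2 and 1 in control at day 0 and 5, 2 and 0 at day 2. In FHL2 they were 27, 7 and 9 at day 0 and 0, 0 and 7 at day 2. One FHL2 library of day 0 held more counts than the others together held in that group, and the days overlapped in both lines. Rnf43, the partner of Znrf3, had 10 counts, all at day 0, Nkd1 had 1 and Nkd2 none.

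Of the DNA-binding factors, Lef1 and Tcf7l1 rose in both lines. Lef1 (ENSMUSG00000027985) was 6.38, 7.82 and 10.98 CPM in control at day 0 and 30.6, 34.8 and 16.1 CPM at day 2. FHL2 had 6.76, 6.84 and 8.16 CPM at day 0 and 23.2, 13.5 and 13.6 CPM at day 2. All day 2 libraries lay above all day 0 libraries. The rise was 3.25-fold in control (log2 fold change 1.70, SE 0.33, adjusted p = 0.000474) and 2.31-fold in FHL2 (1.21, SE 0.32, adjusted p = 0.00575), and larger after GC correction (2.08 and 1.58). Lef1 shares exon sequence with the opposite-strand gene Gm43352, which had 25 counts in either line at day 0 and 30 and 32 at day 2, against 465 or more for Lef1 in every group.

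Tcf7l1 (ENSMUSG00000055799), often a repressor of Wnt targets, was 193, 178 and 205 CPM in control at day 0 and 492, 457 and 504 CPM at day 2. In FHL2 it was 175, 178 and 188 CPM at day 0 and 469, 438 and 342 CPM at day 2. The days were far apart in both lines. The rise was 2.52-fold in control (log2 fold change 1.33, SE 0.11, adjusted p = 1.89e-07) and 2.31-fold in FHL2 (1.21, SE 0.11, adjusted p = 5.03e-07). After GC correction it shrank to 0.32 (adjusted p = 0.0227) and 0.28 (adjusted p = 0.043). Tcf7l2 had group means of 38.9 to 47.9 CPM and did not pass (-0.09 and -0.12, or 0.08 and 0.04 after GC correction). Tcf7 had counts of 5, 12 and 11 in control at day 0 and at most 6 in any other group summed.

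**Figure D2:**
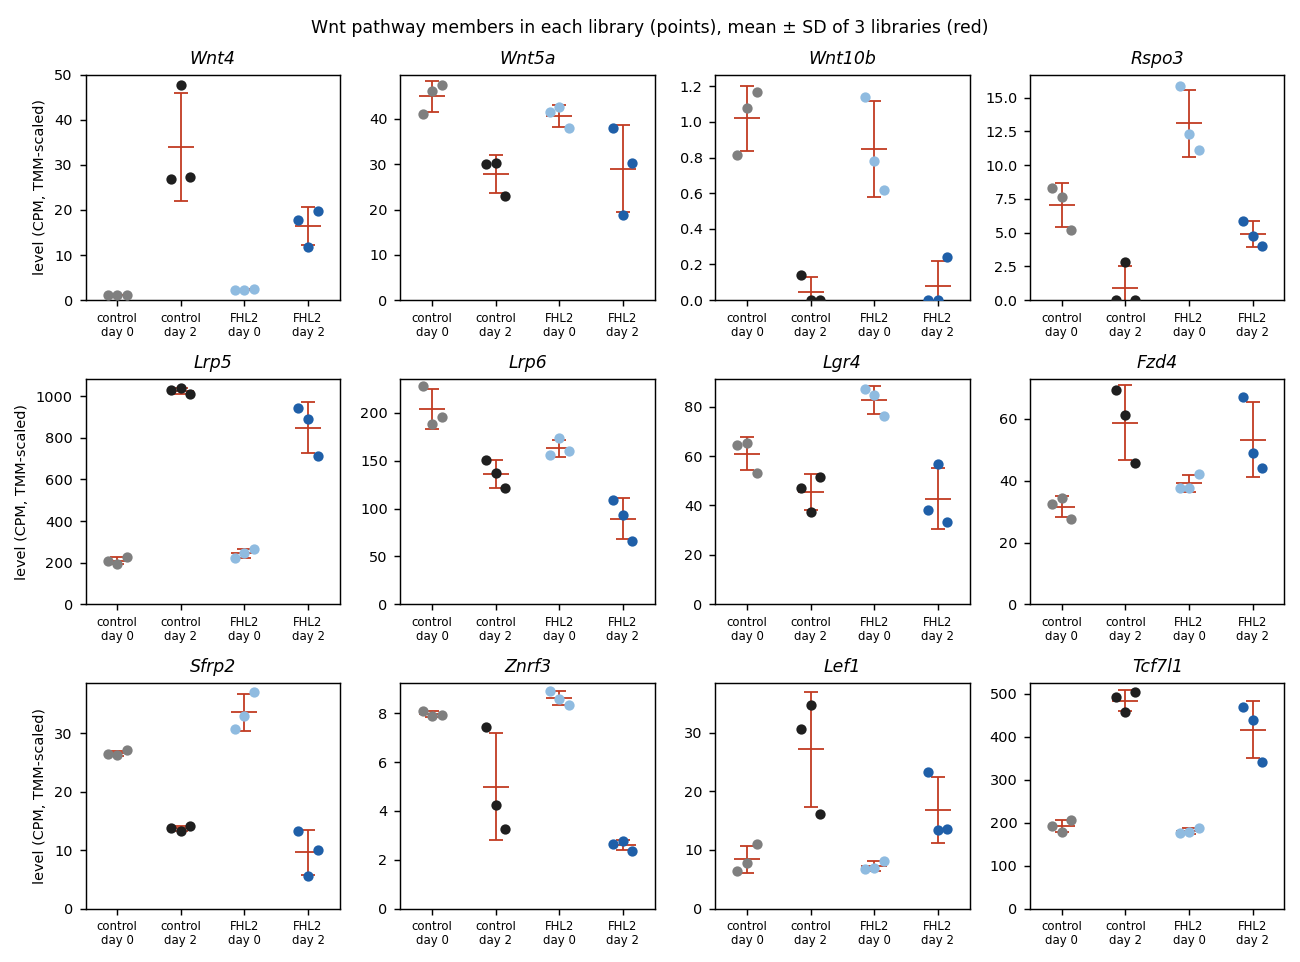
Level of 12 members (y axis, CPM after TMM scaling, from 0) in each of the 12 libraries (points), by line and day (x axis), with the mean ± SD of 3 libraries in red. Wnt4, Lrp5, Lef1 and Tcf7l1 stand higher at day 2 in both lines, and Rspo3 in control at day 2 is at 0 in 2 of 3 libraries.

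The make-up of each class was then set out as shares of its summed level per kilobase. These shares were chosen after the values above were known and are given without a test. Wnt5a made up 82.0% ± 2.65 of ligand transcript in control at day 0 and 30.6% ± 5.36 at day 2 (mean ± SD, n = 3), while Wnt4 went from 3.27% ± 0.259 to 60.3% ± 7.32. In FHL2, Wnt5a went from 73.9% ± 0.654 to 46.1% ± 7.88 and Wnt4 from 7.09% ± 0.541 to 44.0% ± 5.80. Wnt4 was thus the largest ligand share in every control library of day 2 and in 2 of the 3 FHL2 libraries, and the days did not overlap in either line. After GC correction the Wnt4 share at day 2 was 51.8% ± 9.06 in control and 36.2% ± 5.11 in FHL2, and Wnt5a was then larger than Wnt4 in every FHL2 library and in 1 of the 3 control libraries.

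Lrp5 went from 52.1% ± 2.99 of the co-receptor pair to 88.8% ± 1.00 in control and from 61.2% ± 2.11 to 91.0% ± 0.858 in FHL2, without overlap between the days. Among the 4 TCF and LEF factors, Tcf7l1 held 80.4% ± 0.796 at day 0 and 89.0% ± 2.09 at day 2 in control, and 81.6% ± 0.765 and 90.1% ± 0.961 in FHL2. After GC correction the days of that share overlapped in both lines, with means in control of 86.0% ± 1.44 and 84.0% ± 1.91. Fzd1 and Fzd2 together held 79.98% ± 1.29 and 78.3% ± 3.00 of frizzled transcript in control and 78.1% ± 0.435 and 78.4% ± 2.83 in FHL2, with overlap between the days. That pair's share too depended on GC content, with 83.0% ± 0.495 and 73.5% ± 3.40 in control after correction and no overlap.

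**Figure D3:**
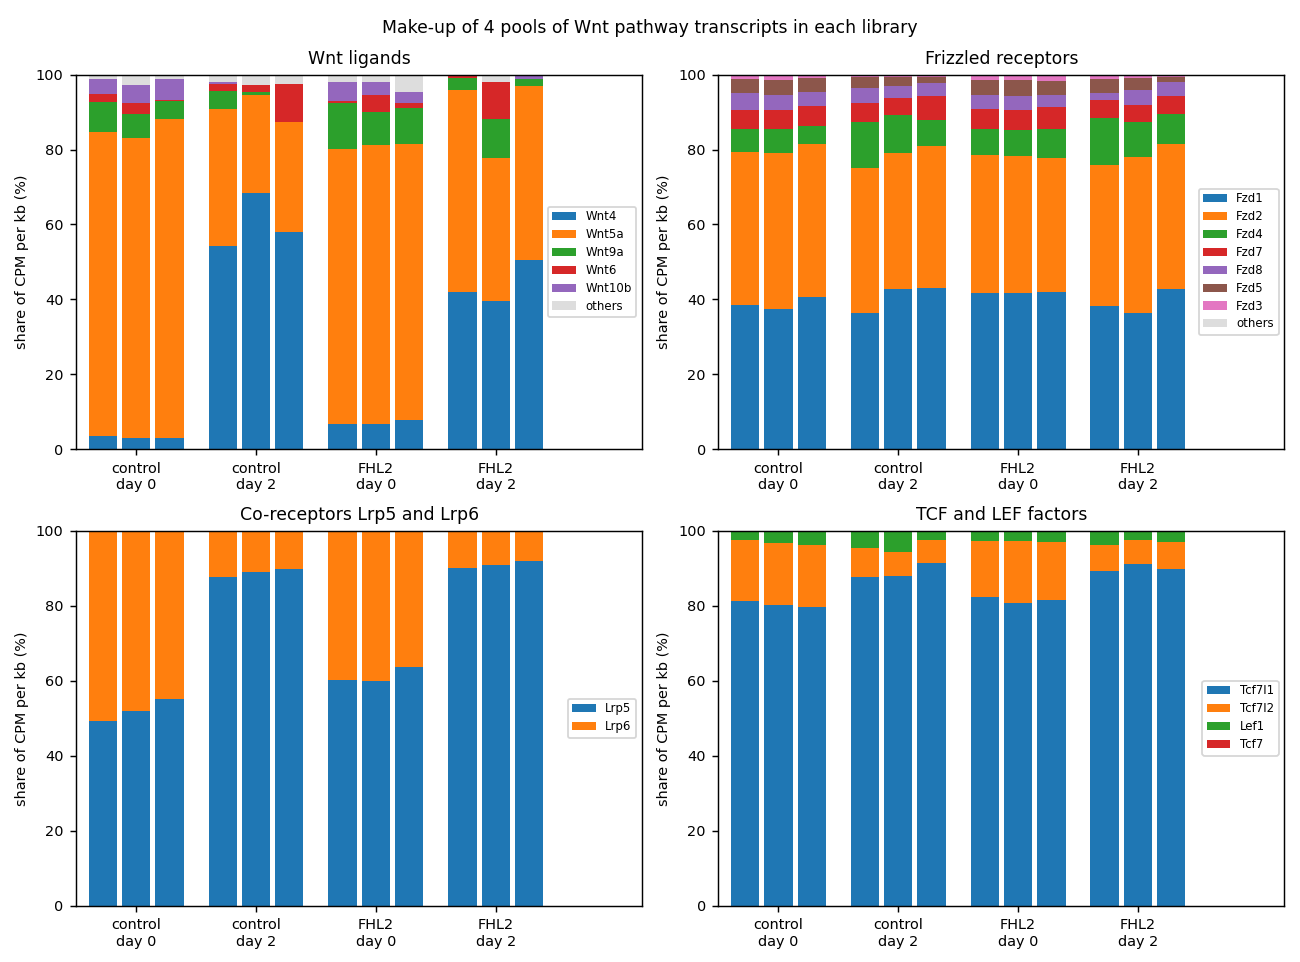
Make-up of 4 classes of Wnt pathway transcript in each library, as stacked shares of summed CPM per kb (y axis, percent), by line and day (x axis, 3 bars a group). Wnt4 takes the place of Wnt5a as the largest ligand share at day 2 in control, Lrp5 gains over Lrp6, and Fzd1 and Fzd2 hold most of the frizzled share in every bar.

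The other genes of the pathway moved in both directions as well. Of the 54 further components that were found, 45 were tested, and in control 30 of them passed, 16 higher and 14 lower at day 2, beside 57.1% of all tested genes. In FHL2 it was 31, 16 higher and 15 lower, beside 56.0%. After GC correction 9 were higher and 20 lower in control, beside 40.8% of all tested genes, and 6 and 18 in FHL2, beside 41.1%. The median log2 fold change of the components was 0.11 in control and 0.16 in FHL2, and -0.40 and -0.45 after correction. Over all tested genes it was -0.14 and -0.11, and -0.26 and -0.23 after correction. The list was drawn up with earlier results of these data known. The components with the largest change in control, at 5 CPM or more, were Apc, Porcn, Pygo1, Tnks2 and Daam1.

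Apc, which holds beta-catenin in the destruction complex, was 104, 81.1 and 58.3 CPM in control at day 0 and 12.4, 16.98 and 10.9 CPM at day 2. Its log2 fold change was -2.59 (SE 0.22, adjusted p = 3.38e-07) in control and -2.75 (SE 0.23, adjusted p = 2.19e-07) in FHL2. Porcn, the enzyme that attaches the lipid every Wnt needs for secretion, was 11.6, 10.6 and 11.8 CPM in control at day 0 and 59.1, 55.6 and 40.5 CPM at day 2. It rose by 2.19 (SE 0.19, adjusted p = 4.17e-07) in control and 2.32 (SE 0.20, adjusted p = 2.96e-07) in FHL2, and by 1.31 and 1.49 after GC correction. Pygo1, a nuclear partner of beta-catenin, changed by -1.67 in control, Tnks2, a tankyrase that marks Axin for removal, by -1.57, and Daam1, a formin of the planar polarity branch, by -1.54. All 3 were also lower in FHL2 (-1.40, -1.54 and -1.61). GC correction brought Pygo1 to -0.80 in control and -0.59 in FHL2, where it no longer passed (adjusted p = 0.0773), and Tnks2 to -0.81 and -0.82.

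Known beta-catenin targets outside the member list did not move as a block. Of the 8 tested of 10, 3 were higher and 2 lower in control, where 57.1% of all tested genes passed. In FHL2 it was 2 and 2, where 56.0% passed. After GC correction 4 were higher and 2 lower in control, beside 40.8% of all tested genes, and 4 and 4 in FHL2, beside 41.1%. Fosl1, an AP-1 subunit, went from 22.6, 17.2 and 19.7 CPM to 202, 299 and 219 CPM in control, a log2 fold change of 3.59 (SE 0.19, adjusted p = 4.21e-09). The matrix-associated protein gene Ccn5 rose by 2.12 (adjusted p = 1.94e-07) and by 1.18 after GC correction, and its relative Ccn4 changed by -2.09 (adjusted p = 4.67e-06). These genes are known to respond to other pathways too.

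The lines were then compared, which asks whether the libraries labelled FHL2 differed in Wnt pathway transcripts before or after induction. No tested member passed in edgeR at day 0, where 0.0485% of all tested genes did (0.0208% higher in FHL2 and 0.0277% lower), and 4 of 25 were at an unadjusted p under 0.05. None passed at day 2, where 2.07% of all tested genes did (0.720% higher in FHL2 and 1.35% lower), and 6 were under 0.05 unadjusted. None passed in the interaction of line and day, where 0.00693% of all tested genes did, and 3 were under 0.05 unadjusted. Over all 14435 tested genes, 600, 2611 and 996 were under 0.05 unadjusted at day 0, at day 2 and in the interaction. DESeq2 called 0, 2 and 1 members in these comparisons and limma-voom 0, 2 and 0: Lrp6 and Wnt4 at day 2 by both, and Wnt4 in the interaction by DESeq2. The shares above are edgeR's. Those of DESeq2 and limma-voom over all genes are not given here, so their calls set neither gene apart. The members' median difference was 0.06 at day 0 and -0.21 at day 2, beside -0.02 and 0.01 over all tested genes.

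Lrp6 and Wnt4 came nearest to the threshold at day 2. Lrp6, listed above in every library, was 136 ± 14.7 CPM in control and 89.6 ± 21.5 CPM in FHL2 at day 2 (mean ± SD, n = 3), a log2 difference of -0.61 (95% interval -0.93 to -0.28, adjusted p = 0.0576). It passed after GC correction (-0.62, adjusted p = 0.0471), without control day 2 replicate 3 (-0.72, adjusted p = 0.0405) and without FHL2 day 2 replicate 1 (-0.78, adjusted p = 0.0212). With the 3 sparsest day 2 libraries left out, so that a single FHL2 library stood for that day and was taken to vary like the rest, it was -1.14. It did not pass with the day 2 libraries fitted alone (-0.60, adjusted p = 0.259), and over the 12 settings besides single left-out libraries it passed in 8, with adjusted p from 0.000301 to 0.259. At day 0 its difference was -0.32 (-0.64 to -0.00088, adjusted p = 1), and the interaction was -0.28 (adjusted p = 0.851). The libraries of the lines did not overlap at either day.

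Wnt4 in FHL2 lay on opposite sides of control at the 2 days. At day 0 it was 1.07 ± 0.0231 CPM in control and 2.33 ± 0.0394 CPM in FHL2, a log2 difference of 1.12 (95% interval 0.43 to 1.80, adjusted p = 0.478). Those SDs are of few counts of Wnt4, 17 to 24 a library in control and 47 to 55 in FHL2. At day 2 it was 33.9 ± 11.9 CPM in control and 16.4 ± 4.18 CPM in FHL2, a difference of -1.05 (-1.64 to -0.46, adjusted p = 0.0675), which passed without control day 2 replicate 3 (-1.22, adjusted p = 0.0453) and did not with the day 2 libraries fitted alone (-1.05, adjusted p = 0.232). The lines did not overlap at either day, with FHL2 above at day 0 and below at day 2. The interaction was -2.17 (95% interval -3.07 to -1.26, adjusted p = 0.162), short of the threshold in edgeR. It passed in DESeq2 (-2.16, adjusted p = 0.00311) and with no filter on low counts (-2.17, adjusted p = 0.00737).

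Libraries of the lines lay apart at day 0 in many members. Besides Lgr4 and Rspo3, FHL2 lay wholly above control for Axin1, Fzd4, Sfrp2, Wnt4, Wnt9a and Znrf3. It lay wholly below control for Lrp6, Fzd2, Fzd8, Tcf7l2, Rspo2 and Dkk3. The share of all genes without overlap between the lines was not computed, so a lack of overlap sets no member apart. Lgr4 and Rspo3 stood above every control library in all FHL2 libraries of day 0, with differences of 0.44 (95% interval 0.05 to 0.83) and 0.89 (-0.84 to 2.62), both with an adjusted p of 1 in the fit of all 12 libraries. In a fit of the day 0 libraries alone, whose spread is smaller, they passed (0.46 and 0.91, adjusted p = 0.0272 and 0.0361), where 1.75% of all tested genes passed. At day 2 Rspo3 differed by 2.32 (0.37 to 4.28, adjusted p = 0.194), with counts in 1 of 3 control libraries, and by 9.42 (adjusted p = 0.00139) without that library, where the fold rests on a group at 0. Znrf3 differed at day 2 by -0.95 (-1.75 to -0.16, adjusted p = 0.191). These intervals come from the fit of all 12 libraries, which shares 1 spread per gene between the days. With the day 2 libraries fitted alone the SE was 1.34 for Rspo3 and 0.70 for Znrf3 (adjusted p = 0.681 and 0.783). Intervals that leave out 0 at day 2 thus rested on the shared spread for both genes. Ctnnb1 differed by -0.0028 (-0.17 to 0.16) at day 0 and 0.10 (-0.07 to 0.26) at day 2, the narrowest intervals of the 25. For Wnt10b, Wnt6, Wnt9a, Rspo2 and Dkk3 the intervals at day 2 ran from under -1 to over 1, so differences of that size in either direction were not detectable in these libraries.

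At day 2, 2 of the 45 tested components and 2 of the 8 tested targets were called between the lines, all lower in FHL2. Of all tested genes 2.07% passed there, 1.35% lower in FHL2. The genes are named because they passed. Bcl9, the adaptor between beta-catenin and Pygo, was 106, 78.2 and 75.4 CPM in control and 65.3, 46.9 and 50.6 CPM in FHL2 (log2 difference -0.68, SE 0.15, adjusted p = 0.0349), and no longer passed after GC correction (adjusted p = 0.0564) or when any library except control day 2 replicate 3 or FHL2 day 2 replicate 1 was left out (adjusted p between 0.0539 and 0.113). Ror2, a receptor for Wnt5a, was 3.02, 2.50 and 4.65 CPM in control and 0, 0 and 0.182 CPM in FHL2 (adjusted p = 0.0198). At day 0 it was 1.63, 2.43 and 1.96 CPM in control and 0.0845, 0.0977 and 0.142 CPM in FHL2 (adjusted p = 0.23), so that the FHL2 libraries were near 0 at both days. Among the targets, Fosl1 was 55.8, 77.5 and 64.9 CPM in FHL2 at day 2, below all control libraries of that day (log2 difference -1.86, SE 0.18, adjusted p = 0.000198), and Jun, another AP-1 subunit, was 106, 151 and 186 CPM in control and 97.6, 88.8 and 95.6 CPM in FHL2 (-0.65, SE 0.15, adjusted p = 0.042). The Jun call was lost on leaving out any library except control day 2 replicate 1 and FHL2 day 2 replicate 1 (adjusted p between 0.0539 and 0.0929). In a fit of the day 2 libraries alone Bcl9, Ror2 and Jun did not pass (adjusted p = 0.237, 0.221 and 0.22), where 0.304% of all tested genes did. None of the components passed at day 0 or in the interaction in edgeR, where 4 and 1 were under 0.05 unadjusted, and DESeq2 called Porcn, Ror2 and Trabd2b at day 0. None of the targets passed there either, with 1 and 3 under 0.05 unadjusted, and DESeq2 called Fosl1 in the interaction. Over all 14435 tested genes, 600 and 996 were under 0.05 unadjusted in edgeR at day 0 and in the interaction. The share of all genes called by DESeq2 is not given here. limma-voom called no gene of either list in these comparisons.

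**Figure D4:**
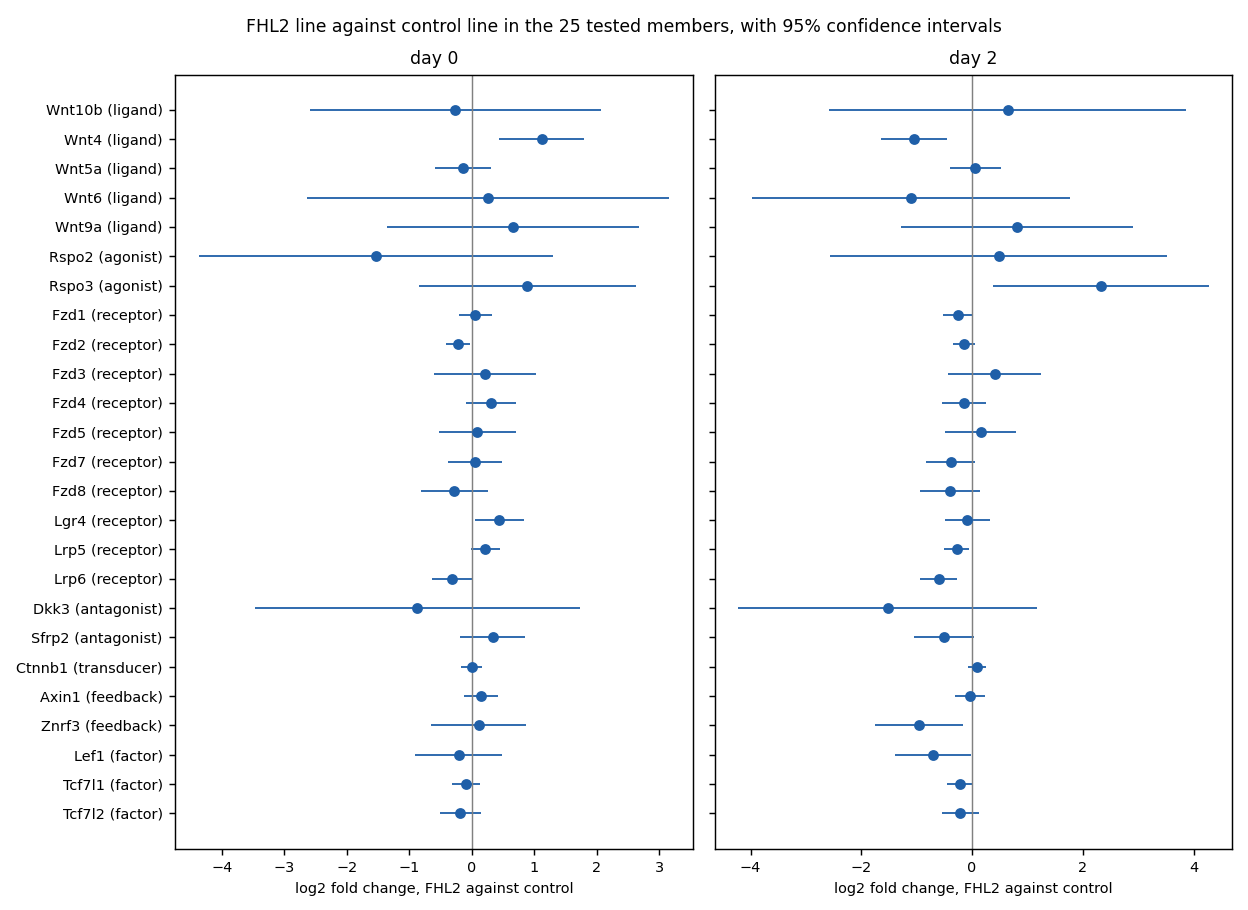
Log2 fold change of FHL2 against control (x axis) for the 25 tested members (y axis) at day 0 (left) and day 2 (right), with 95% confidence intervals. Wnt4 lies right of 0 at day 0 and left of 0 at day 2, and the intervals of the low-count members Wnt6, Wnt10b, Rspo2 and Dkk3 are the widest.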

How the data were processed

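The authors deposited 1 table of gene counts for all 12 libraries, whole-number read counts per Ensembl gene, not normalized. Per the submitters' processing notes, reads and counts passed through HISAT2 2.2.1, HTSeq 0.11.0, FastQC 0.11.9, limma, R 4.1.0 and Trimmomatic 0.39, in no stated order, on genome build GRCm39. Settings, annotation release and use of strand in counting: not given in the sources used here.

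Members and the other gene lists were chosen with earlier results of these data known. Symbols were found for 52081 of 55414 identifiers. Counts were fitted in edgeR 4.0.16 (filterByExpr by group, TMM scaling, quasi-likelihood F test) with 1 mean per group over all 12 libraries, in R 4.3.3. P-values were adjusted by Benjamini-Hochberg over the 14435 genes tested, and an adjusted p under 0.05 was called. CPM are counts scaled to library size by TMM, and SE is the standard error of the log2 fold change. Lengths and GC content are those of the longest GENCODE M21 transcript (GRCm38), a build other than that of the files, and were found for 99.8% of tested genes. The GC correction is an offset per library, a spline with 6 degrees of freedom over genes at 5 CPM or more. Upstream windows are RefSeq sequences.

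Values in every library are given for members called between the lines, for up to 16 called members with the largest change between the days at 1 CPM or more, and for Ctnnb1, Lrp6, Axin2, Lef1 and Wnt10b. Axin2 did not pass the filter, and its counts are given although that part of the rule asked for members that passed. Of other pathway genes up to 5 components and 3 targets at 5 CPM or more are named, besides those called between the lines. Trabd2b was named after its values were seen.

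Replicates of a group differed by more than counting noise. Replicate numbers did not pair the libraries: 1 of 18 same-numbered pairs correlated above 0.1 (r from -0.09 to 0.10). Alternatives were other scalings and filters, DESeq2 1.42.0, limma-voom (limma 3.58.1), the groups compared alone, a replicate block, GC and length offsets, and leaving out libraries. The procedure was tested on simulated counts.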

Additional observations from a re-analysis of the deposited data

How the results depend on the processing

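The number of members called between the days stayed within 1.5 times its value in all but 1 alternative: in control it ran from 10 to 15, and in FHL2 from 8 to 14 except after GC correction, where it was 16. On leaving out single libraries it ran from 10 to 14 in control and from 8 to 12 in FHL2. The number called between the lines was 0 at either day and in the interaction, and rose in some alternatives. At day 0 it was 2 in the fit of those groups alone, and 0 to 0 on leaving out single libraries. At day 2 it was 3 without a filter, 2 by DESeq2, 2 by limma-voom, 1 after GC correction, 1 after GC and length correction, 1 with GC correction and the replicate block, and 0 to 2 on leaving out single libraries. In the interaction it was 1 without a filter, 1 by DESeq2 and 0 to 1 on leaving out single libraries (Rspo3 without control day 2 replicate 2). With the 3 sparsest day 2 libraries left out it was 7 at day 2 (Fzd4, Fzd5, Lef1, Lrp5, Lrp6, Tcf7l1 and Znrf3) and 4 in the interaction (Fzd4, Lrp5, Lrp6 and Wnt4), where the 1 FHL2 library left is taken to vary like the other groups. The cause was not tested.

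With the replicate block, which pairs libraries by number only, 12 and 9 members were called between the days in control and FHL2, 0 and 1 (Lrp6) between the lines at day 0 and day 2, and 0 in the interaction.

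Single genes followed through every alternative did not include Fzd1, Fzd2, Fzd5, Fzd7, Fzd8, Tcf7l2, Wnt6, Wnt9a, Rspo2 or Dkk3. Among those followed, directions of values called with or without the alternative turned only with a GC offset. With the GC offset, the GC and length offset, and the GC offset with the replicate block, the log2 fold change between the days was 0.62, 1.01 and 0.55 for Fzd3 in control, -0.37, -0.29 and -0.37 for Axin1 in control, -0.50, -0.40 and -0.51 for Axin1 in FHL2, and -0.30, -0.28 and -0.30 for Ctnnb1 in control. For Lrp6 in control it was 0.17 with the GC and length offset. Signs of values not called either way also turned: with the same 3 offsets Fzd3 in FHL2 gave 0.55, 0.999 and 0.60 and Ctnnb1 in FHL2 -0.17, -0.15 and -0.17, and with the GC and length offset Wnt5a in FHL2 gave 0.11 and Lgr4 in control 0.038. Near 0, Ctnnb1 between the lines at day 0 was 0.0069 with upper-quartile scaling, 0.0014 at 1 CPM in 3 libraries, 0.021 with those groups alone and 0.0084 without the 3 sparsest libraries, and -0.0204 to 0.0135 on leaving out single libraries. Ctnnb1 between the days in control ran there from -0.00558 to 0.127, and Lgr4 between the lines at day 2 from -0.346 to 0.0596. Over the genes followed singly, 1549 of 1720 values kept their direction and their side of the threshold. Of the rest, 70 lost and 66 gained a call in the same direction, and 35 turned. Outside that count, the GC offset also turned Fzd2 to a called fall between the days in both lines (-0.94 in control and -0.80 in FHL2). In control it did the same for Fzd1 (-0.70) and Fzd7 (-0.63).

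The curve behind the offset comes from another genome build than the counts. Low counts limit Wnt6, Wnt9a, Wnt10b, Rspo2, Rspo3 and Dkk3, which lacked a count in 1 or more day 2 libraries, and the 16 members with too few counts to test. Day 2 libraries also held fewer genes than day 0 libraries at equal depth, so their zeros are not a matter of total count alone. Lef1, Tcf7l1, Wnt5a, Rspo3, Sfrp2, Ctnnb1 and Fzd5 overlap exons of an opposite-strand gene, and the labels do not state whether their reads were told apart.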
